A study of Drosophila melanogaster with 8 samples.

Results

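Da regions whose summit lay more than 1000 bp and at most 2000 bp from the nearest annotated transcript start are described here. They are 596 (8.96%) of the 6649 regions that were found in both 3xFLAG-Da immunoprecipitations and touched no peak of the untagged Control. Da (Daughterless) is the only class 1 basic helix-loop-helix (bHLH) protein, or E-protein, of Drosophila, and the ortholog of vertebrate E-proteins such as TCF4. It binds DNA as a homodimer or together with a tissue-specific class 2 bHLH partner, and the bHLH dimers recognise the E-box, a word of the form CANNTG in which each partner contributes one side. Emc, a helix-loop-helix protein without a DNA-binding domain, sequesters Da. Sequence close to a transcript start but outside the core promoter holds the proximal enhancers, the beginnings of first introns and alternative promoters of a gene.

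Chromatin came from whole heads of flies 1 to 3 days old, of both sexes, and was precipitated with the anti-FLAG antibody F1804. In the 3xFLAG-Da line the endogenous Da protein carries a 3xFLAG tag, and the Control line is white*, the background of the tagged line, which carries no FLAG sequence. Each line gave 2 immunoprecipitates (IP) and 2 inputs, 8 libraries in all, and for each IP a list of peaks called against its own input. Heads mix neurons, glia, muscle, fat body and cuticle cells, so binding in more cells and more binding per cell cannot be told apart.

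The members were chosen by the peak calls themselves. Peaks of the 3xFLAG-Da lists (10915 in replicate 1 and 8745 in replicate 2) were merged where they overlapped, which gave 7237 regions present in both lists, and the 588 regions (8.13%) that touched a peak of either Control list were set aside. At 1 to 2 kb from a start 642 regions were found before this step and 46 (7.17%) were set aside. The distance was measured from the summit of the replicate 2 peak with the lowest start coordinate. Peak height, fold enrichment and q-value come from the same comparison of IP with input that chose the regions, so they are given below as descriptions, without a test. Of the other regions, 4642 (69.8%) had their summit within 1000 bp of a start, called promoter regions here, and 1409 (21.2%) lay over 2000 bp away.

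The Control IPs were shallower than the 3xFLAG-Da IPs. The background read pileup recovered from the peak lists was 9.36 and 4.17 in the 3xFLAG-Da replicates and 1.92 and 1.72 in the Control replicates, a ratio of 2.17 to 5.44, and the Control lists held 453 and 707 peaks. When the pileup of each region was scaled down to the depth of the deeper Control list, 281 of the 596 regions (47.2%) would still have been called in both replicates. The share was 63.1% of promoter regions and 44.6% of regions over 2 kb away. For the rest of the 596, signal as high as in 3xFLAG-Da would have missed a call at that depth in at least 1 replicate.

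To show what lay under these summits, 101 bases around the summit are printed for 9 regions, with every E-box in capitals. No E-box of any kind lay in the windows of 235 regions (39.4%), and Tlk, also among the best-ranked 10, is printed as one of these. The Tlk region was merged from several peaks, and its strongest signal lay outside this window. In replicate 2 the peak at the printed summit had a fold of 8.72 against 12.9 for the region. The replicate 1 summit lay 1997 bp away. CG13829, fry and CR46447 were among the best-ranked 10 regions by fold, and mnb, sr, bun, Btk and CG31635 held at least 2 E-boxes of the kinds CAGCTG or CAGGTG or CAGATG. The sequences were read from the + strand of the Release 6 genome (BDGP6), 5′ to 3′, so CACCTG and CATCTG are CAGGTG and CAGATG on the other strand. The windows were chr3R:23162442-23162542 (intergenic, 1154 bp upstream of CG13829), chr3L:9677254-9677354 (intron of fry), chrX:1953093-1953193 (intron of Hr4, nearest start that of the pseudogene CR46447), chrX:17873536-17873636 (intron of mnb), chr3R:18089505-18089605 (intergenic, 1248 bp upstream of sr), chr2L:12495017-12495117 (intron of bun), chr2L:8266863-8266963 (intron of Btk), chr2L:6646428-6646528 (coding exon of CG31635) and chrX:3741069-3741169 (intron of Tlk).
CG13829: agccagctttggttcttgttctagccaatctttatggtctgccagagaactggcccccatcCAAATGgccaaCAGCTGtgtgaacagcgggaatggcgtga
fry: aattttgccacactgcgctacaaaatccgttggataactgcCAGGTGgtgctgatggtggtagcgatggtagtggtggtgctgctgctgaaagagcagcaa
CR46447: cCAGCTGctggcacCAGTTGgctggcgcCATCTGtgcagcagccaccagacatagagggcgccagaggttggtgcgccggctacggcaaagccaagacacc
mnb: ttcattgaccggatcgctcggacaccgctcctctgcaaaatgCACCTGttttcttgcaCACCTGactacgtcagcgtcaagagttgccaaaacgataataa
sr: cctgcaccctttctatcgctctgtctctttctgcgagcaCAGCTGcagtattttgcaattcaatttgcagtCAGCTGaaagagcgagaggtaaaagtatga
bun: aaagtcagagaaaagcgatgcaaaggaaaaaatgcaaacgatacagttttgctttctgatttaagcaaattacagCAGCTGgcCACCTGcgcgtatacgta
Btk: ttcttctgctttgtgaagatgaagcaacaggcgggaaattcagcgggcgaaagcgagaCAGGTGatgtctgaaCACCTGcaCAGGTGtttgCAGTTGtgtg
CG31635: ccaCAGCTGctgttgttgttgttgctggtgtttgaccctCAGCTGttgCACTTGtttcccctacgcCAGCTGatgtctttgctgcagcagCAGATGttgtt
Tlk: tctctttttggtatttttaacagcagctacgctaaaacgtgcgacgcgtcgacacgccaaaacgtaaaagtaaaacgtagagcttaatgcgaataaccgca

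The Btk window held 3 copies of CAGGTG and the CG31635 window 3 copies of CAGCTG. The sr window held 2 copies of CAGCTG, and the mnb window 2 of CAGGTG. Of the 596 regions, 30 (5.03%) held 2 or more of these 3 E-boxes, and 176 (29.5%, 95% Wilson interval 26.0 to 33.3%) held at least one. In windows of the same length moved 250 bp to either side the share with at least one was 8.72% of 1192. At the summits of promoter regions 3.77% held 2 or more and 25.1% at least one. Over 2 kb away the shares were 5.32% and 31.6%. All intervals in the text cover counting error only, and regions of one genome are not replicates of a condition.

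CAGCTG was the commonest of the E-boxes with a raised share at these summits, and CAGGTG, the E-box that snail-family zinc-finger proteins also read, was raised nearly as much. CAGCTG lay within 50 bp of 89 summits (14.9%) and in 3.27% of the shifted windows, an odds ratio of 5.19 (n = 596 summits and 1192 shifted windows, 95% interval 3.51 to 7.67, adjusted p of 8.54e-16). CAGGTG lay at 67 summits (11.2%) and in 2.52% of the shifted windows, an odds ratio of 4.91 (3.15 to 7.64, adjusted p of 8.13e-12). The tests were logistic regressions of the presence of the word on summit or shifted window, with Benjamini-Hochberg adjustment over 30 tests, the 10 E-boxes in 3 distance classes. CACATG followed at 55 summits (9.23% against 3.94%, odds ratio 2.48, 1.66 to 3.70, adjusted p of 2.74e-05). CACTTG passed narrowly with 56 summits (9.40% against 6.29%, odds ratio 1.54, adjusted p of 0.0323).

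CAGATG, at 33 summits (5.54% against 3.69%), did not pass at an odds ratio of 1.53 (0.963 to 2.43, adjusted p of 0.120). It passed with a window of 100 bp (odds ratio 1.84, adjusted p of 0.000356) and with the summit of the strongest replicate 1 peak (1.71, adjusted p of 0.0327). At promoter regions CAGATG lay at 266 of 4642 summits (5.73%, odds ratio 1.87). The interaction of word and distance class in the logistic regression detected no difference from them (ratio 0.820, 0.501 to 1.34, adjusted p of 0.563). The same held against regions over 2 kb away (ratio 0.692, 0.404 to 1.19, adjusted p of 0.345). CAGTTG (odds ratio 1.32), CAATTG (1.27), CAAATG (1.25), CATATG (0.808) and CACGTG (0.734) did not pass either. CACGTG, the E-box of Myc-Max and Clk-Cyc dimers, lay at only 7 summits (1.17%). The interval for CACGTG, 0.307 to 1.76, covers both a lower and a higher share, and its odds ratio at promoter regions was 1.76.

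**Figure D1:**
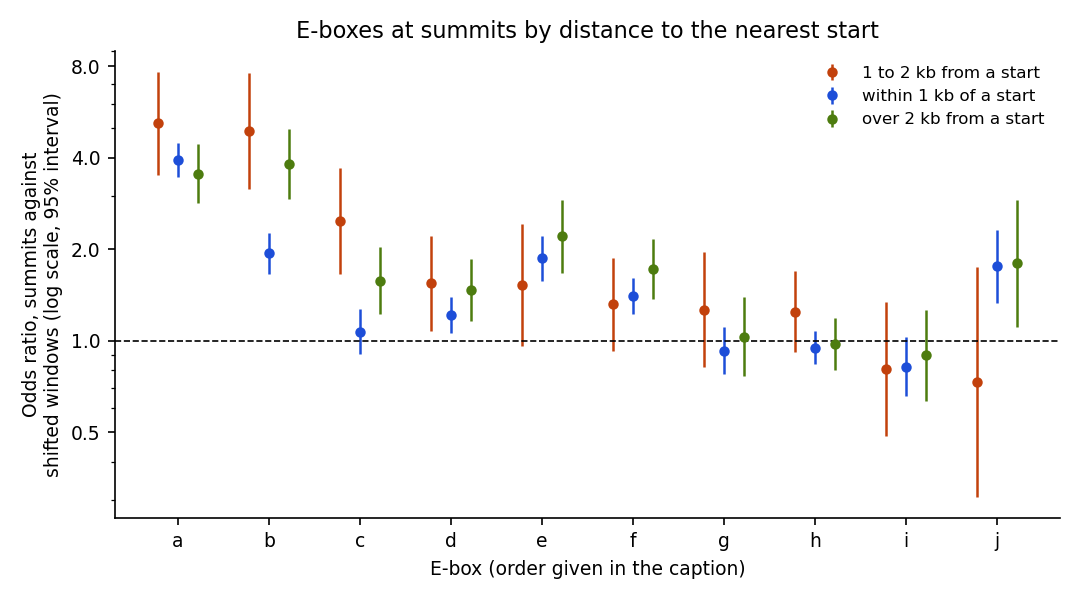
Odds ratio of each E-box at summits against windows shifted by 250 bp (log axis, bars are 95% intervals) for regions 1 to 2 kb from a start, within 1 kb of a start and over 2 kb away. At 1 to 2 kb the E-box a is CAGCTG at 5.19, b CAGGTG at 4.91, c CACATG at 2.48, d CACTTG at 1.54, e CAGATG at 1.53, f CAGTTG at 1.32, g CAATTG at 1.27, h CAAATG at 1.25, i CATATG at 0.808 and j CACGTG at 0.734, while at promoter regions CAGGTG stands at 1.94.

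The density of CAGCTG was highest around the summits. In the 20 bp bins on both sides of the summit there were 3.52 and 4.03 CAGCTG words per 100 regions, and 0.671 in both bins centred 490 bp away. The bins at the summit held 2.68 and 2.35 CAGGTG words per 100 regions, against 1.01 and 0.503 in the outermost bins. CAGATG had no such maximum, with 1.34 and 1.01 words per 100 regions beside the summit and 2.52 in the bin centred 90 bp before it.

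**Figure D2:**
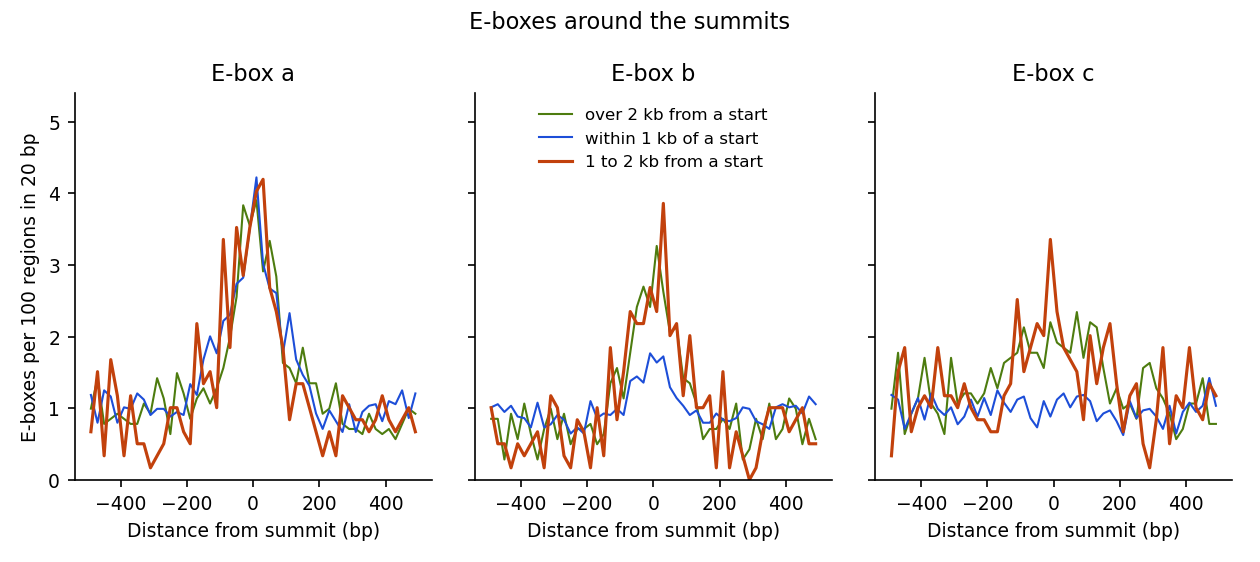
Number of E-boxes per 100 regions in bins of 20 bp (vertical axis) against the distance from the summit in bp, for E-box a (CAGCTG), b (CAGGTG) and c (CACATG) in the 3 distance classes. For CAGCTG the 3 lines rise together to about the same height at the summit, while in the bin just before the summit CAGGTG stands at 2.68 for regions 1 to 2 kb from a start against 1.77 for promoter regions, and CACATG at 3.36 against 0.883.

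CAGGTG was raised more at 1 to 2 kb than at promoter regions, and no such difference was detected for CAGCTG. The odds ratio of CAGCTG at 1 to 2 kb was 1.32 times that at promoter regions (0.873 to 1.99, adjusted p of 0.345) and 1.46 times that at regions over 2 kb away (0.931 to 2.29, adjusted p of 0.305). The odds ratio of CAGGTG was 2.53 times that at promoter regions (1.58 to 4.04, adjusted p of 0.00178), 4.91 against 1.94. Against regions over 2 kb away, where it was 3.82, the ratio was 1.29 (0.766 to 2.16, adjusted p of 0.489). These p-values come from the interaction of word and distance class, adjusted over 20 tests. With a window of 25 bp the CAGGTG ratio was 2.72 and the adjusted p 0.0536. Part of the 2.53 came from the shifted windows. They held CAGGTG less often at 1 to 2 kb (30 of 1192) than at promoter regions (348 of 9284). Compared directly, 67 of 596 summits held CAGGTG against 326 of 4642 promoter summits (7.02%). That is an odds ratio of 1.68 (1.27 to 2.21, adjusted p of 0.00548). It came from logistic regression, over the 52 tests that could be fitted, chosen after the data were seen.

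CACATG also differed from promoter regions, 2.48 against 1.07, a ratio of 2.31 (1.49 to 3.58, adjusted p of 0.00178), and this difference rested on the summits of replicate 2. With the summit of the strongest replicate 1 peak the ratio was 1.04 (adjusted p of 0.999) and the odds ratio at 1 to 2 kb was 1.37 (adjusted p of 0.200). With replicate 1 alone the ratio was 1.1 (adjusted p of 0.905), and with windows shifted by 500 bp it was 1.59 (adjusted p of 0.171). The repeat CACACACA lay in 8 of the 55 windows with CACATG (14.5%, 7.56 to 26.2%) and in 6.10% (4.38 to 8.44%) of the windows without it, a difference that was not tested. The odds ratio of CACACACA itself was 2.37 (adjusted p of 0.000433 over the 48 word tests that could be fitted). In the windows without the repeat the ratio of CACATG against promoter regions was 2.19 (1.39 to 3.47, adjusted p of 0.00801) and that of CAGGTG 2.74 (adjusted p of 0.000658).

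The base next to the E-box was read with 4 longer words. GCAGCTG had an odds ratio of 6.10 (51 summits), ACAGCTG 6.58 (49 summits), GCAGGTG 9.02 (26 summits) and ACAGGTG 7.72 (26 summits), with adjusted p of 4.74e-06 or lower over the same 48 tests. GCAGGTG differed from promoter regions by a ratio of 4.37 (1.73 to 11.1, adjusted p of 0.0277 over the 30 tests that could be fitted), and only 6 of the 1192 shifted windows held it. The share of summits with GCAGGTG did not pass when compared directly, 26 of 596 against 122 of 4642 promoter summits (odds ratio 1.69, 1.10 to 2.60, adjusted p of 0.129). Words rich in A and T were rarer at the summits than beside them, in all 3 distance classes. At 1 to 2 kb TATAAA had an odds ratio of 0.421 (39 summits, adjusted p of 7.15e-06), AAAAAAAA 0.346 (adjusted p of 0.000250), TATTTTTA 0.430 (adjusted p of 0.0200) and TAATTA, the core of many homeodomain sites, 0.587 (adjusted p of 0.0184). TATAAA stood at 0.555 at promoter regions and 0.401 at regions over 2 kb away. The summit windows had a median GC content of 48.5%, against 46.5% at promoter regions and 49.5% at regions over 2 kb away, and the part of base composition in the word results was not tested.

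The words of housekeeping promoters were rare. These words belong to promoters, and the rule kept only summits more than 1000 bp from an annotated start. The contrast with promoter summits therefore follows from the distance rule and is a description, not evidence about Da binding. TATCGATA, the site of the factor DREF, lay at 1 of the 596 summits (0.168%, 0.0296 to 0.944%) and at 182 of the 4642 promoter summits, an odds ratio between the classes of 0.0412 (0.00576 to 0.295, adjusted p of 0.0154 by logistic regression, over the 52 tests that could be fitted, chosen after the data were seen). GGTCACACT, the core promoter word Motif 1, lay at 0 of the 596 summits, which allows a share of up to 0.503%, and at 159 promoter summits. At the regions over 2 kb away TATCGATA lay at 1 summit and GGTCACACT at 0 of 1409, and the words were searched on both strands.

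The 46 regions set aside for a Control peak and the Control peaks themselves give the background. Of the Control peaks, 48 in replicate 1 and 69 in replicate 2 lay 1 to 2 kb from a start. CAGCTG lay at 0 of the 48, which allows up to 6.25%, and at 2 of the 69 (2.90%). CAGGTG lay at 1 and 1 of them. CACATG lay at 5 of the 48 (10.4%, odds ratio 2.12, 0.582 to 7.70) and at 2 of the 69 (2.90%). No E-box passed the test in these Control peaks (logistic regression, 0 of the 16 that could be fitted had an unadjusted p under 0.05), and the smallest adjusted p was 0.554 for CAGATG, at 7 of the 69. Tests on so few peaks could miss a raised share. Over 445 and 691 Control peaks at any distance the odds ratios were 0.657 and 1.10 for CAGCTG. They were 0.964 and 0.713 for CAGGTG, and 1.16 and 0.931 for CACATG. Among the 46 regions set aside CAGCTG lay at 5 (10.9%, 4.73 to 23.0%), CAGGTG at 3 and CACATG at 5.

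The share with any of the 3 E-boxes was compared within the group, without a test. It was 32.1% of the 349 regions downstream of the nearest start and 25.9% of the 247 upstream (intervals 27.4 to 37.2% and 20.9 to 31.7%). In introns it was 30.8%, in intergenic sequence 23.5% and in exons 34.4% of 61. The best-ranked 149 regions by fold held one in 35.6% (28.3 to 43.5%) and the poorest-ranked 149 in 25.5% (19.2 to 33.1%). The intervals overlapped in each of these comparisons. CAGGTG lay at 5.88% of intergenic summits (3.01 to 11.2%) and at 12.8% of intron summits (9.86 to 16.4%).

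The regions lay mostly in introns, and coding exons held few. The summit fell in an intron in 399 regions (66.9%, 63.1 to 70.6%), although introns make up 37.1% of all bases 1 to 2 kb from a start. That is 56.9 regions per Mb of such intron sequence against 31.5 per Mb of all sequence at this distance. Coding exons held 23 regions (3.86%) in 28.1% of the bases, 4.32 per Mb. Intergenic sequence held 136 regions (22.8%) in 24.1% of the bases, 29.8 per Mb. 5′ UTRs held 10 regions in 0.965% of the bases, 3′ UTRs 19 and exons of non-coding transcripts 9.

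**Figure D3:**
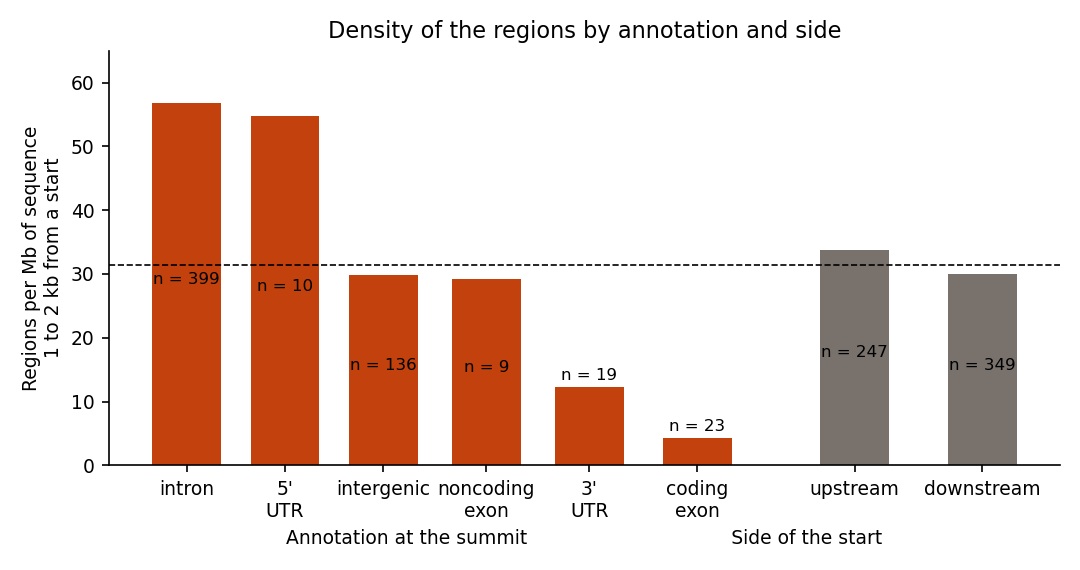
Number of regions per Mb of sequence 1 to 2 kb from a start (bars from 0, number of regions printed as n) by the annotation at the summit and by the side of the nearest start, with the dashed line at 31.5 per Mb for all sequence at this distance. Introns stand at 56.9 and coding exons at 4.32 per Mb, while the upstream and downstream sides lie close to the line.

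The regions fell on both sides of the start in about the proportion of the sequence. Downstream of the nearest start lay 349 regions (58.6%, 54.6 to 62.4%), and 61.4% of the bases at this distance are downstream. The 247 upstream regions (41.4%) compare with 53.7% upstream among promoter regions and 33.9% among regions over 2 kb away. In steps of 250 bp from 1001 to 2000 bp the number of regions was 175, 154, 143 and 124. Sequence 1 to 2 kb from a start makes up 14.2% of the chromosome arms, and the density of 31.5 regions per Mb stood between 147 within 1000 bp and 16.9 beyond 2000 bp. Regions on the arms ran from 41.2 per Mb on 3L (156 regions) and 35.8 on 3R (160) to 20.7 on X (69), and chromosome 4 held 1.

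The nearest start belonged to a protein-coding gene in 522 regions (87.6%) and to a non-coding RNA gene in 66. In 378 regions (63.4%) the summit lay inside the gene with the nearest start and in 82 (13.8%) inside another gene only, such as the Hr4 intron near CR46447. Taking only starts of protein-coding genes, 68 regions (11.4%) would lie over 2 kb from a start.

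The distance classes share borders, and many members lay beside other binding. Another region had its summit within 2000 bp of 332 members (55.7%), and for 292 (49.0%) a promoter region did. The region itself reached to within 1000 bp of a start in 251 cases (42.1%). Around the inner limit the promoter regions at MYPT-75D (995 bp), RabGGTa (997 bp) and Pax (1000 bp) had folds of 7.88 and 6.0, 8.17 and 8.73, and 4.72 and 6.86 in replicates 1 and 2. The members just past it, at CG4607 (1001 bp), CG13116 (1006 bp) and Pax (1006 bp), had folds of 2.86 and 5.02, 4.2 and 5.63, and 3.39 and 4.36. At the outer limit the last members, at CG15529 (1995 bp), sug (1997 bp) and jvl (1997 bp), had folds of 3.08 and 3.47, 3.39 and 3.04, and 3.33 and 4.23. Just outside it Orai (2001 bp) had 5.71 and 8.13, fru (2006 bp) 5.07 and 4.77 and chinmo (2007 bp) 5.55 and 7.27.

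The summits of replicate 1 mostly fell in the same class. The summit of the strongest replicate 1 peak lay 1 to 2 kb from a start in 515 regions (86.4%, 83.4 to 88.9%), within 1000 bp in 58 and over 2000 bp away in 23. The median distance between the summits was 51 bp, and 296 regions (49.7%) had them within 50 bp. In 69 regions several peaks had been merged, and 527 had 1 peak in each list.

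The fold enrichment had a lower median than at promoter regions, in both replicates. The fold over input had a median of 3.98 in replicate 1 (lowest 1.80, highest 13.9) and 4.64 in replicate 2 (2.37 to 23.8), with 4.83 and 5.22 at promoter regions and 4.0 and 4.50 at regions over 2 kb away. The median pileup at the peak was 54 reads in replicate 1 and 28 in replicate 2, against 72 and 33 at promoters. When all 6649 regions were ranked by the mean of their fold ranks, and the ranking was cut into 4 equal groups, 119 members stood in the best group and 214 (35.9%) in the poorest. The best rank was 20.

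**Figure D4:**
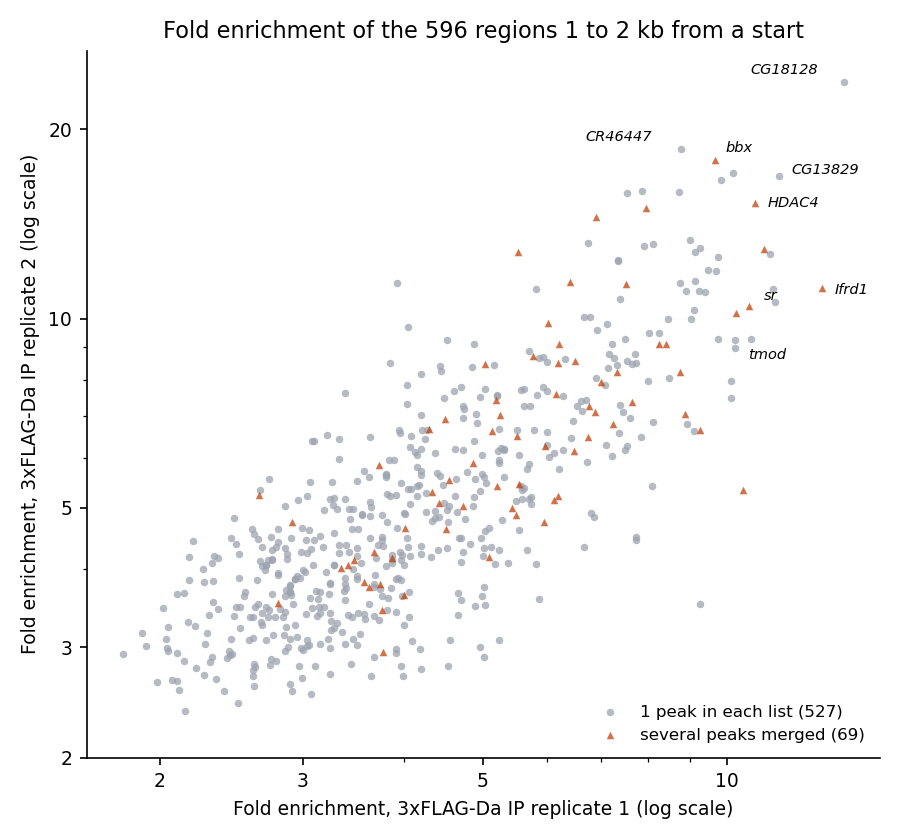
Fold enrichment over input of each of the 596 regions in 3xFLAG-Da replicate 1 (horizontal) and replicate 2 (vertical), both on log axes, one point per region; triangles are the 69 regions in which several peaks were merged. The region near CG18128 stands highest with 13.9 and 23.8, and several of the highest points, such as HDAC4, bbx and Ifrd1, are merged regions.

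Among the 10 best-ranked regions, 9 lay in introns, 7 downstream of the nearest start, and 6 held CAGCTG or CAGGTG or CAGATG. The first had its nearest start at CG18128, 1228 bp away, with folds of 13.9 and 23.8 and pileups of 185 and 139 reads, and its summit lay in an intron of Sesn (sestrin, a stress-induced inhibitor of TOR signalling) with one CAGCTG and one CAGGTG. The region upstream of CG13829 had folds of 11.6 and 16.8, and the summits of the replicates lay 1 bp apart. In fry, which acts with the kinase Trc in neurite branching and tiling, folds were 10.2 and 17.1 at a summit 1799 bp downstream of a start. Both replicates placed this summit within 32 bp of each other.

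Kcmf1, a ubiquitin ligase, had folds of 9.83 and 16.6 at 1639 bp downstream of a start. In mys, the integrin subunit βPS, folds were 11.3 and 12.7 at 1906 bp downstream. The CR46447 region inside Hr4, a nuclear receptor of the ecdysone response, had folds of 8.77 and 18.6. These 6 regions had a single peak in each list.

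The other 4 of the best-ranked 10 were merged regions whose strongest signal lay elsewhere. At HDAC4, a class IIa histone deacetylase, the region had folds of 10.8 and 15.3, but the replicate 2 peak that carried the summit had 4.25 and the replicate 1 summit lay 2292 bp from a start. At bbx, an HMG-box protein, the region had 9.68 and 17.9, the peak with the summit 6.69, and the replicate 1 summit lay 105 bp from a start. At Ifrd1 the region had 13.1 and 11.2, the peak with the summit 3.57, and the replicate 1 summit lay 195 bp from a start. At Tlk, the Tousled-like kinase of chromatin assembly, the values were 11.1 and 12.9, 8.72 and 3219 bp. Over all members the peak with the summit was not the strongest replicate 2 peak of its region in 45 (7.55%).

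The 30 regions with at least 2 of the 3 E-boxes ran from rank 20 to rank 6548 of 6649 by fold, with a median of 3938, and the best-ranked 10 of them are named here or above. The sr region (stripe, the EGR-type zinc-finger factor of tendon cells) had folds of 10.7 and 10.5, with replicate summits 4 bp apart. The mnb region (minibrain, the fly DYRK1A kinase) had 9.14 and 12.7, bun (bunched, a TSC-22 family factor) 9.02 and 9.98, and Btk (a Tec-family tyrosine kinase) 8.02 and 9.47. Below these came kel, the kelch protein of ring canals (5.16 and 8.45), CG31635 (4.51 and 9.24), CG13937 (4.96 and 7.51) and fdl (6.20 and 5.23).

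Most genes with a member also had a promoter region. The 596 regions had their nearest start at 529 genes, 458 of them protein-coding, which is 3.28% of the 13945 protein-coding genes. Of the 458, 326 (71.2%, 66.9 to 75.1%) had another region within 1000 bp of one of their starts, and 38.6% of all protein-coding genes had such a region. Among the 56 protein-coding genes with 2 or more members the count was 51 (91.1%). These shares were not adjusted for the number of starts of a gene, which can raise both counts. SNF4Agamma and fru, with the most members, had 0.0136 and 0.0114 Mb of sequence 1 to 2 kb from a start. All 13945 protein-coding genes together had 15.6 Mb. Counted by region, 412 of the 596 (69.1%) belonged to a gene with a region at a start. It was 52.7% when only regions callable at Control depth were kept and 64.1% with only regions of 1 peak in each list, settings that also remove promoter regions. The share over all protein-coding genes was not recomputed under them.

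Some genes carried several members. SNF4Agamma, the gamma subunit of AMP-activated kinase, and fru (fruitless, the BTB zinc-finger factor of male courtship) had 4 each, all in introns. The fru regions had folds of 4.19 and 5.71, 4.15 and 5.22, 3.43 and 4.80, and 3.67 and 2.90, and those of SNF4Agamma lay between 2.2 and 4.99. Blimp-1, bol, cher and tmod had 3 each. The strongest of these lay in tmod (tropomodulin, which caps the pointed end of actin filaments) with folds of 10.2 and 8.96, 1274 bp downstream of a start. The strongest in Blimp-1, a zinc-finger repressor timed by ecdysone, had 8.0 and 7.95. In cher (filamin) folds ranged from 2.45 to 5.16, and in bol (boule, an RNA-binding protein of the male germ line) from 2.60 to 4.96.

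Gene lists for processes of the fly head were read against the 3.28% of all protein-coding genes, as a description. All of the lists were chosen with earlier results of these data known, so none of their shares is independent evidence. In a list of immediate early genes and of regulators of muscle, tendon and hormone response, 9 of 15 genes (60.0%) had 13 members, 214 per Mb of their sequence 1 to 2 kb from a start against 33.4 for all protein-coding genes. Several of these genes were known to be bound before the list was written, so the count is not independent evidence. Mef2, the myogenic MADS-box factor, had folds of 4.70 and 7.78 at a summit in its 5′ UTR with a CAGATG. The Fos gene kay had 5.14 and 6.63 and br, a BTB factor of metamorphosis, 5.97 and 6.27, both in introns. Of the ecdysone-induced genes, Eip74EF had 4.44 and 8.24 with a CAGATG and Eip75B 2 regions, the stronger with 5.44 and 5.0. The second sr region lay in an intron with 4.86 and 5.03, and the weakest of the list was CrebA with 2.67 and 3.29. The regions at kay, Eip74EF, Eip75B and CrebA and the second sr region ranked below the first 5 of the list and were added with their values already known.

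The EGF receptor and Ras list had 5 of 20 genes (25.0%), 123 members per Mb against 33.4 for all protein-coding genes. The ligand vn had folds of 5.70 and 5.87 at a summit in its 5′ UTR, and the receptor Egfr 5.02 and 3.74 with a CAGGTG in an intron. The secreted inhibitor aos had 6.13 and 5.15, also with a CAGGTG, and it was the only one of the 5 genes without a region at a start. The ETS-domain effector pnt had 4.36 and 6.12. The gene edl, whose product binds Pnt and its antagonist Yan, had 10.1 and 7.97.

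The circadian clock list had 4 of 13 genes (30.8%) with 5 members, all in introns. That is 144 members per Mb against 33.4 for all protein-coding genes. The bZIP repressor vri had 2 regions with folds of 4.08 and 5.36 and of 4.71 and 4.48, and the first held a CAGATG. Clk, the bHLH-PAS activator of the clock, had 4.05 and 4.33, the kinase sgg 3.1 and 4.44 and Pdp1, a bZIP activator, 2.16 and 3.29. The Pdp1 summit held both CAGCTG and CACGTG.

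**Figure D5:**
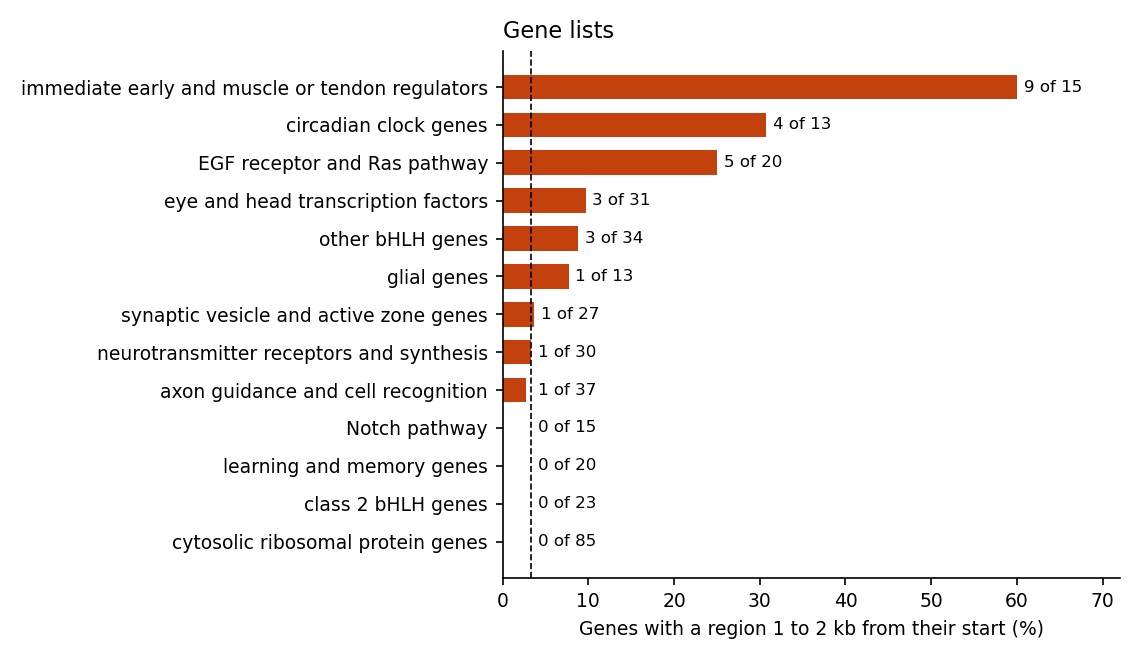
Share of the genes of each list that had a region 1 to 2 kb from their start as the nearest one (bars from 0, in %, with the count of genes), with the dashed line at 3.28% for all protein-coding genes. The list of immediate early genes and muscle or tendon regulators stands at 60.0% (9 of 15), and 4 lists have no gene with such a region. The lists were chosen with earlier results of these data known. Shares are per gene and not adjusted for the sequence each gene has at this distance.

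The other lists held small counts, which say little about a share above or below the 3.28% of all protein-coding genes. Of eye and head transcription factors 3 of 31 genes (9.68%) had one, 38.7 members per Mb against 33.4 for all protein-coding genes. These were Lim1 with folds of 5.70 and 5.16, toe with 2.90 and 4.47 and a CAGCTG, and pros with 2.70 and 4.06. Of bHLH genes other than those of class 2, 3 of 34 (8.82%, 52.3 members per Mb) did, Clk, sim (4.68 and 4.47) and Myc (2.47 and 3.36). Axon guidance (caps, 3.51 and 4.63) and synaptic vesicle and active zone genes (dlg1, 2.91 and 2.56) had 1 gene each, of 37 (2.70%) and 27 (3.70%). Transmitter receptors (mAChR-A, 3.74 and 3.78) had 1 of 30 (3.33%). Glial genes (the glutamate transporter Eaat1, 4.97 and 4.48 with a CAGATG) had 1 of 13 (7.69%).

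No gene had a member among 23 class 2 bHLH genes, 15 Notch pathway genes, 20 learning and memory genes and 85 cytosolic ribosomal protein genes. These lists have 0.0346, 0.0249, 0.0446 and 0.0346 Mb of sequence at this distance, so a count of 0 allows up to 3 members each and says little about them. Promoter regions were found at 58 of the 85 ribosomal protein genes and 3 of the 23 class 2 bHLH genes. Over all protein-coding genes the share with such a region was 38.6%. The ribosomal protein list lay above this share and the class 2 bHLH list below it, and neither difference was tested.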

How the data were processed

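Anti-FLAG ChIP-seq peaks were analysed from 4 deposited lists, one per IP. The authors trimmed 75 bp single reads with BBDuk, mapped them to BDGP6.32 with Bowtie2 2.5.1, filtered at mapping quality 20 and removed duplicates with SAMtools 1.12, and called peaks per IP against its own input with MACS2 2.2.7.1 at q 0.05; replicates were not pooled and inputs enter only through these calls. The deposited columns hold the fold over input at the summit (a ratio), −log10 p and −log10 q, and an integer score, which was not used. Read totals are unknown from such lists, so background pileup was recovered from fold and −log10 p (tolerance 0.002) to compare depth.

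Peaks were merged at an overlap of 1 bp. Distances and contexts come from Ensembl release 115 (BDGP6.54) models of the same Release 6 assembly, without transposable elements. E-boxes within 50 bp of summits were compared with windows shifted by 250 bp, as in the study, by logistic regression in Python 3.11.15 (numpy 2.4.6, scipy 1.17.1), with Benjamini-Hochberg adjustment at 0.05. The code was tested on simulated data. Alternatives changed overlap, Control filter, q, starts, summit, replicates, window and shift. Regions were named if in the best 10 by mean fold rank, if holding at least 2 of CAGCTG or CAGGTG or CAGATG (up to 10), if nearest to a listed gene (up to 5 per list), if their gene held the most regions (up to 10 genes), or if next to the limits. The members and lists were chosen with earlier results of these data known. No test ran over libraries, so p-values cover counting of windows in this one set of regions. Sequences from 1 chromosome arm were not printed.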

Additional observations from a re-analysis of the deposited data

Results flagged for a closer look

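Results for 4 words differed between the regions 1 to 2 kb from a start and the promoter regions by a test of the difference itself. The ratio of odds ratios was 2.53 for CAGGTG (4.91 against 1.94), 4.37 for GCAGGTG, 2.31 for CACATG and 2.34 for CACACACA (2.37 at 1 to 2 kb, adjusted p of the difference 0.0236). In the direct comparison of summits the odds ratio was 1.68 for CAGGTG, 1.69 for GCAGGTG, 2.16 for CACATG and 1.91 for CACACACA. Of these, only that of GCAGGTG did not pass. None of the E-boxes differed past the threshold from regions over 2 kb away. The CACACACA word overlapped CAGGTG in few windows, with 1 of the 67 CAGGTG windows holding it. The CACATG difference depended on the summits used, as given with the result.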

How the results depend on the processing

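Of 184 values computed under alternatives, 165 kept their direction and side of the threshold, or stayed within the interval or 1.5 times the count; no direction reversed. The odds ratio of CAGCTG (3.41 to 5.71) and that of CAGGTG (3.55 to 5.75) passed the test under every alternative run. Leaving out 1 library at a time gave 598 to 1047 regions, and only the 1047 with 3xFLAG-Da replicate 1 alone was more than 1.5 times the main count; regions callable at Control depth numbered 281. Without 1 library the odds ratio of CAGATG ranged from 1.35 to 1.60 and passed with 3xFLAG-Da replicate 1 alone (1.55); it also passed without the Control filter (1.65), with replicate 1 summits (1.71) and in windows of 100 bp (1.84). The odds ratio of CACATG lost its call with replicate 1 summits (1.37). Against promoter regions, CAGGTG lost it in windows of 25 bp (2.72), and CACATG with replicate 1 summits (1.04), with 3xFLAG-Da replicate 1 alone (1.1, range without 1 library 1.1 to 2.37), in windows of 25 bp (2.41) and with a shift of 500 bp (1.59). The cause was not tested. The share with a region at a start of the same gene was 58.5% with 50% overlap, 63.2% at −log10 q of at least 5, 73.3% with protein-coding starts, 52.7% at Control depth, 64.1% with 1 peak in each list, and 69.6 to 74.8% without 1 library. Regions with 1 peak in each list, regions with the replicate 1 summit in the same class, windows without CACACACA, and all alternatives for the CACATG results and the CAGGTG ratio were added after seeing the data. No paired analysis was possible from the peak lists, because such a list holds values only where a peak was called. The Control lists therefore have no value at these regions to set beside those of the same replicate number. The authors also compared peak signal between 3xFLAG-Da and white* with DiffBind, and that comparison was not used here. Precision is limited by 2 replicates and by the shallow Control lists.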
